A study of Homo sapiens with 6 samples.

Results

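The genes described here encode ligands and an enzyme through which tumour cells restrain immune cells, known as immune checkpoint ligands. They were 10 genes listed by symbol: CD274, PDCD1LG2, CD276, VTCN1, CD47, LGALS9, NECTIN2, PVR, IDO1 and ICOSLG. All 10 were found among the 63140 genes of the deposited count table, and 7 of them had enough counts to be tested. Libraries of poly-A RNA from NOZ, an established human gallbladder cancer line, were compared with libraries from NOZ-R, a line derived from it by raising the dose of the nucleoside analogue gemcitabine in steps. Each line had 3 libraries, with 14136037 to 19244923 counts per library. The labels give no dose, do not say whether NOZ-R is 1 clone or a pool, and do not say whether gemcitabine was present at harvest. Separate cultures are not stated for the replicates, and the p-values therefore reflect the spread of these libraries alone, which may be technical.

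Checkpoint ligands sit on the surface of a tumour cell and are read by receptors on T cells, NK cells or macrophages. CD274 (PD-L1) and PDCD1LG2 (PD-L2) bind PD-1 and dampen T cell activation. CD276 (B7-H3), VTCN1 (B7-H4) and ICOSLG belong to the same B7 family, ICOSLG being the ligand of the costimulatory receptor ICOS. PVR and NECTIN2 are cell adhesion molecules that engage the inhibitory receptor TIGIT and the activating receptor CD226. LGALS9 encodes galectin-9, a sugar-binding protein that binds TIM-3, the product of HAVCR2, while CD47 signals to SIRP alpha on macrophages and inhibits engulfment. IDO1 acts as an enzyme, opening the breakdown of tryptophan to kynurenine. Several of these genes are known to respond to interferon, CD274, PDCD1LG2, LGALS9 and IDO1 among them.

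The sequences upstream of CD274 and LGALS9 are shown because these genes lay at opposite ends of the members' response, CD274 with the smallest and LGALS9 with the largest called difference. Upstream sequence was matched for 8 of the 10 genes in the RefSeq promoter table of GRCh38.p14 (all but PDCD1LG2 and IDO1). Each sequence is the 250 bases before the RefSeq start, 5′ to 3′, on the plus strand, from chr9:5450292-5450541 for CD274 and chr17:27630938-27631187 for LGALS9. The gene spans given below come from GENCODE and begin earlier, at 5450503 for CD274 and 27629798 for LGALS9. The CD274 window therefore runs past the GENCODE start, and the LGALS9 window lies wholly inside the GENCODE span. For LGALS9, sequence before the GENCODE start was not scanned, so its window and that of CD274 are not equivalent. Capitals mark matches, on either strand, to the interferon-stimulated response element core (TTTC, 2 bases of any kind, TTTC), the gamma-activated site TTCNNNGAA, the kappaB consensus or the hypoxia element core ACGTG.
CD274: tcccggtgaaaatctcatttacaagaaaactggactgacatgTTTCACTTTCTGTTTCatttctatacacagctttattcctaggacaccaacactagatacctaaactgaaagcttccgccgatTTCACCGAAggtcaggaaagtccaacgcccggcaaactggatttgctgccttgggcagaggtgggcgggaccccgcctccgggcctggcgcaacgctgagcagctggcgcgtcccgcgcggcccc
LGALS9: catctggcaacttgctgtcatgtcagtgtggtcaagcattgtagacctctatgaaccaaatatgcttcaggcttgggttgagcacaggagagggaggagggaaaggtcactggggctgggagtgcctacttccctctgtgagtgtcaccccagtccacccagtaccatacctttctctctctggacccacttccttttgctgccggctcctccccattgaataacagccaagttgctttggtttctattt
The CD274 window held 2 overlapping matches to the response element core, beginning 208 and 202 bases before the start, and 1 gamma-activated site beginning 125 bases before it. Among 35116 windows of this length, 3.02% held the response element core and 6.57% the gamma-activated site. The LGALS9 window held no match to any of these motifs, which says only that these letters were absent from it. It says nothing about sequence before the GENCODE start of LGALS9. The windows of VTCN1, NECTIN2, PVR and ICOSLG also held none, CD47 held 1 hypoxia element core (18.5% of windows), and of 2 windows for CD276 the second held that core and 1 kappaB match (9.96% of windows).

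NOZ-R was set against NOZ to find transcripts that differed between the derived line and its parent. With 1 line of each kind, differences tied to resistance cannot be told apart from other differences between the lines. Of the 7 tested genes, 5 were higher in NOZ-R (LGALS9, PDCD1LG2, PVR, CD47 and CD274), none was lower, and CD276 and NECTIN2 did not pass (edgeR's quasi-likelihood test, Benjamini-Hochberg adjusted p below 0.05 over all genes tested). Changes were common in these lines: 60.2% of the 14386 genes tested passed, 30.4% higher and 29.8% lower. With a test against a 2-fold change, 1 of the 7, LGALS9, stayed higher and none was lower, against 5.89% and 3.07% of all genes tested. The median log2 fold change was 0.34 over the 7 genes and -0.01 over all genes tested. LGALS9 passed the filter on low counts through NOZ-R alone, so it had to be higher there to enter these counts and the median. Levels are given as CPM, the count relative to a library size scaled by TMM factors, which correct for composition, unless FPKM is named. Where the libraries of the lines are said not to overlap, the share of all genes that do the same is not given.

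**Figure D1:**
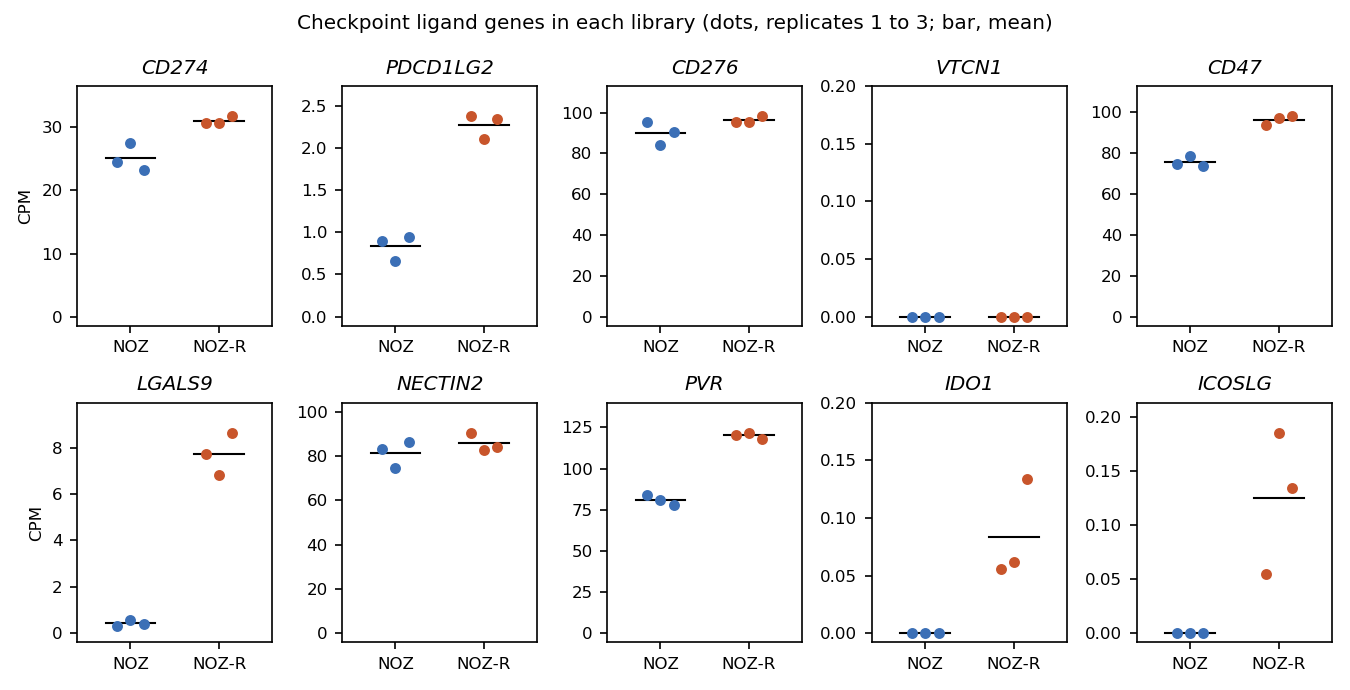
Level in CPM of each of the 10 genes in every library, with NOZ in blue, NOZ-R in orange, dots for replicates 1 to 3 and a bar for the mean. The lines do not overlap for CD274, PDCD1LG2, CD47, LGALS9 and PVR, they overlap for CD276 and NECTIN2, and VTCN1 is at 0 in all 6 libraries. IDO1 and ICOSLG, at 0 in NOZ with at most 2 and 3 counts per NOZ-R library, do not overlap either. The share of all genes without overlap is not given.

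LGALS9 moved most. It had 6, 10 and 6 counts in NOZ replicates 1 to 3 and 140, 110 and 129 counts in NOZ-R, or 0.300, 0.554 and 0.406 CPM against 7.74, 6.81 and 8.65 CPM. All 3 NOZ-R libraries were far above all 3 NOZ libraries. The means were 0.420 CPM ± 0.128 and 7.73 CPM ± 0.918 (SD, n = 3 per line), an 18.2-fold rise, log2 fold change 4.19 (SE 0.244; edgeR, adjusted p = 6.42e-09). It was the only one of the 7 that passed the filter on low counts through NOZ-R alone, so it had to differ to be tested. LGALS9 (chromosome 17, 27629798 to 27649560) has near-identical copies, LGALS9B and LGALS9C, whose reads may be split among the 3 genes. Another annotated gene, AC015688.4, overlaps LGALS9 by 10980 bases on the same strand, where reads may be shared or lost. It had 0 counts in all 6 libraries. LGALS9B had 0, 5 and 0 counts in NOZ against 16, 9 and 14 in NOZ-R, and LGALS9C had at most 6 in any library. Summed over the 3 copies, the level was 0.736 CPM ± 0.306 for NOZ and 8.67 CPM ± 1.05 for NOZ-R (SD, n = 3 per line), a log2 ratio of means of 3.56. LGALS9 itself held 57.9% of these summed counts for NOZ and 89.2% for NOZ-R. Its nearest tested neighbours both fell, WSB1 by 0.16 and NLK by 0.37 in log2 fold change (edgeR adjusted p = 0.0222 and 0.00161).

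The PD-1 ligands differed in level and in the size of their change. PDCD1LG2 was scarce, with 18, 12 and 14 counts in NOZ against 43, 34 and 35 in NOZ-R. In CPM these were 0.899, 0.665 and 0.948 against 2.38, 2.11 and 2.35, with no overlap between the lines. Its mean rose from 0.837 CPM ± 0.151 to 2.28 CPM ± 0.149 (SD, n = 3 per line), log2 fold change 1.44 (SE 0.272; edgeR, adjusted p = 0.000435). A rise of more than 2-fold was not established (adjusted p = 0.174 in edgeR's test against a 2-fold change).

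CD274 had 491, 498 and 343 counts in NOZ against 554, 495 and 474 in NOZ-R, corresponding to 24.5, 27.6 and 23.2 CPM against 30.6, 30.7 and 31.8 CPM. The lines did not overlap, but the gap between the highest NOZ and the lowest NOZ-R library was small. CD274 rose from 25.1 CPM ± 2.24 to 31.0 CPM ± 0.658 (SD, n = 3 per line), log2 fold change 0.30 (SE 0.0848; edgeR, adjusted p = 0.00717). Of the tested genes, 4145 had a log2 fold change at least as high. The call rests on the correction for library composition. When libraries were scaled only by their size, the all-gene median moved from -0.01 to -0.14 and the log2 fold change of CD274 was 0.17 (edgeR adjusted p = 0.0928). That scaling called 3316 genes higher and 5468 lower, against 4379 and 4284 with TMM factors. Relative to the median of all genes, CD274 was higher by 0.32 with TMM factors. Within a library, CD274 exceeded PDCD1LG2 in FPKM by 16.1-, 24.6- and 14.5-fold in NOZ and by 7.63-, 8.62- and 8.02-fold in NOZ-R. Every NOZ-R library had a lower ratio than any NOZ library.

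**Figure D2:**
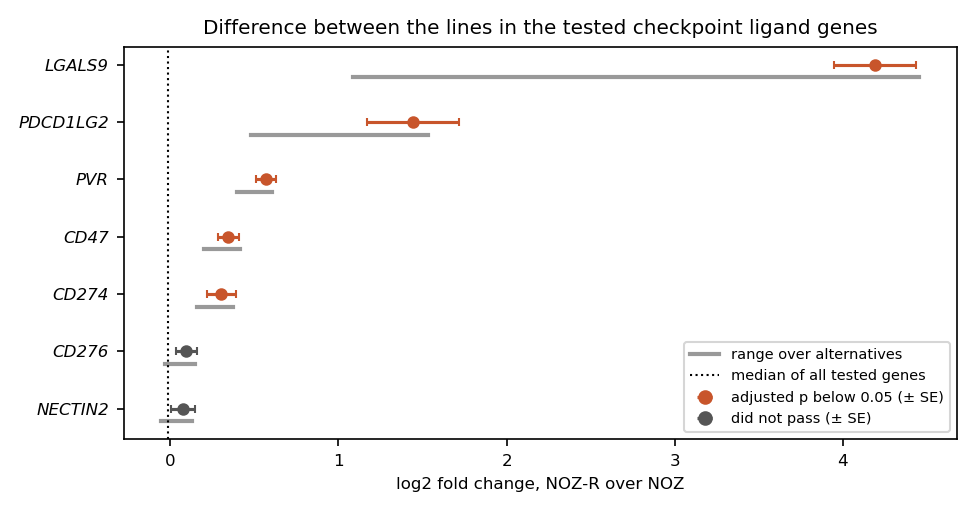
Log2 fold change of NOZ-R over NOZ for the 7 tested genes, with points and bars for the estimate ± SE, grey lines for the range over 19 alternative analyses and a dotted line for the median of all tested genes. LGALS9 at 4.19 and PDCD1LG2 at 1.44 stand above the rest, CD274, CD47 and PVR lie between 0.30 and 0.57, and the grey lines of CD276 and NECTIN2 cross 0. The low ends for LGALS9 and PDCD1LG2 come from the log2(FPKM + 1) scale, which shrinks the change of low genes.

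CD274 (chromosome 9, 5450503 to 5470566) and PDCD1LG2 (chromosome 9, 5510570 to 5571254) are neighbours on the plus strand, and they stood out from the genes around them. Chromosome 9 as a whole was lower in NOZ-R, with a median log2 fold change of -0.64 over 555 tested genes, of which 7.75% were called higher. Within 1.5 Mb on either side of the CD274 start, 17 genes with a symbol were tested. Apart from CD274 and PDCD1LG2, all 15 had log2 fold changes below 0, and 14 of them passed as lower (edgeR, adjusted p below 0.05). Their median was -0.88. PLGRKT, which encodes a plasminogen receptor, has its lower coordinate at -92.5 kb from the CD274 start, whatever its strand. It was at -0.09 ± 0.102 (SE, edgeR adjusted p = 0.461), and RIC1 on the far side of PDCD1LG2 was at -0.47 ± 0.0795 (SE, edgeR adjusted p = 0.000175). JAK2, the kinase that carries interferon gamma signals, lies at -466.1 kb, toward lower coordinates. It fell from 41.0 CPM ± 7.84 to 17.3 CPM ± 2.50 (SD, n = 3 per line), log2 fold change -1.25 (SE 0.134; edgeR, adjusted p = 2.64e-06). Gene copy number was not measured here, so a change in copies and a change in transcription per copy cannot be told apart.

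**Figure D3:**
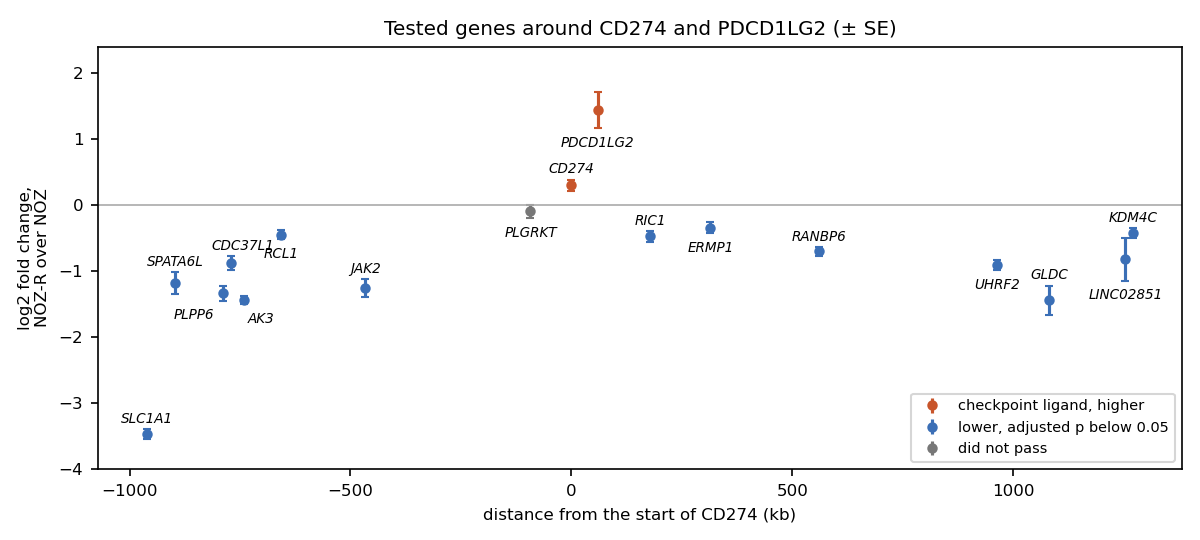
Log2 fold change of NOZ-R over NOZ, ± SE, for the 17 tested genes with a symbol within 1.5 Mb of CD274, against distance from its start in kb. CD274 and PDCD1LG2, in orange, are the points above 0, PLGRKT in grey is at -0.09, and the 14 blue points passed as lower, down to -3.47 for SLC1A1.

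The ligands of TIGIT and CD226 parted, PVR rising and NECTIN2 showing no called difference. PVR had 84.1, 81.1 and 77.8 CPM in NOZ against 120.3, 121.9 and 118.3 CPM in NOZ-R. The NOZ-R libraries were all above the NOZ libraries and close to each other. PVR (chromosome 19, 44643798 to 44663583) rose from 81.0 CPM ± 3.16 to 120.2 CPM ± 1.82 (SD, n = 3 per line), 1.48-fold, log2 fold change 0.57 (SE 0.0590; edgeR, adjusted p = 1.99e-06). An annotated antisense gene spans PVR, and reads on the opposite strand cannot be assigned with certainty. The table lists it as CEACAM16-AS1 with at most 12 counts in any library. CEACAM19 overlaps PVR by 1306 bases on the same strand, where reads may be shared or lost, and had at most 35 counts in any library. NECTIN2 (chromosome 19, 44846175 to 44889228) had 83.4, 74.6 and 86.4 CPM in NOZ against 90.6, 82.6 and 84.1 CPM in NOZ-R, and the lines overlapped. Its log2 fold change, 0.08 with an SE of 0.0710, did not pass (edgeR, adjusted p = 0.376). The FPKM of PVR relative to NECTIN2 was 0.359 ± 0.0337 for NOZ and 0.504 ± 0.0266 for NOZ-R (SD, n = 3 per line), without overlap between the lines. The size of this ratio depends on the fixed lengths behind the FPKM, 10427 bases for PVR and 3742 bases for NECTIN2. PVR and NECTIN2 lie close together on chromosome 19, whose median log2 fold change was 0.07. The nearest tested neighbours of PVR, ZNF180 and CEACAM19, did not pass at 0.09 and -0.15 (edgeR adjusted p = 0.612 and 0.669), whereas both neighbours of NECTIN2 rose, BCAM by 0.93 and TOMM40 by 0.65 (edgeR adjusted p = 0.00209 and 2.05e-06).

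CD47 rose by a small and even amount. It measured 75.0, 78.8 and 74.0 CPM in NOZ against 93.7, 97.5 and 98.2 CPM in NOZ-R, with no overlap. CD47 (chromosome 3, 108043094 to 108091862) rose from 75.9 CPM ± 2.51 to 96.5 CPM ± 2.43 (SD, n = 3 per line), log2 fold change 0.34 (SE 0.0603; edgeR, adjusted p = 0.000231). IFT57, the next tested gene on the higher side, fell by 0.50 (edgeR adjusted p = 0.000413), and BBX on the lower side was at -0.29 (edgeR adjusted p = 0.0510). CD276 (chromosome 15, 73683966 to 73714518) had 95.6, 84.3 and 90.7 CPM in NOZ against 95.4, 95.3 and 98.3 CPM in NOZ-R. The lines overlapped, and its log2 fold change, 0.09 with an SE of 0.0639, did not pass (edgeR, adjusted p = 0.218). Of its nearest tested neighbours, NPTN-IT1 fell by 0.62 and LOXL1-AS1 was at -0.11 (edgeR adjusted p = 0.0175 and 0.391). Under scaling by library size alone the estimates for CD276 and NECTIN2 turned to -0.03 and -0.05, also without passing (edgeR adjusted p = 0.653 and 0.534).

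The remaining members were at or near 0. VTCN1 (chromosome 1, 117143587 to 117210960) had 0 counts in all 6 libraries, which allows a level of up to 0.0294 CPM over the 6 together. IDO1 (chromosome 8, 39902275 to 39928444) had 0 counts in NOZ against 1, 1 and 2 in NOZ-R. The 4 counts in NOZ-R have an exact 95% Poisson interval of 1.09 to 10.2. ICOSLG (chromosome 21, 44217014 to 44240966) had 0 counts in NOZ against 1, 3 and 2 in NOZ-R, with an interval of 2.20 to 13.1 for its 6 counts. Both intervals reach below the 3 counts that a count of 0 allows in NOZ, but such an overlap is not a test of a difference. Whether IDO1 or ICOSLG differed between the lines was not tested. These genes were too scarce to be tested, and the intervals and floors cover counting error only.

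Levels of different genes were compared per gene length, in FPKM as deposited. The order, like the ratios between genes above, depends on the 1 fixed length per gene behind these values. In NOZ the order was NECTIN2 (22.7 FPKM ± 1.69), CD276 (17.2 ± 1.04), CD47 (9.63 ± 0.335), PVR (8.11 ± 0.302), CD274 (6.38 ± 0.579), PDCD1LG2 (0.359 ± 0.0645) and LGALS9 (0.0768 ± 0.0235), each SD over n = 3. No pair of neighbours in this order overlapped between libraries. In NOZ-R the order of the first 5 was the same, with CD47 (10.9 to 11.4 FPKM) and PVR (10.8 to 11.1 FPKM) overlapping, and CD274 at 7.21 FPKM ± 0.139. LGALS9, at 1.29 FPKM ± 0.153, had moved above PDCD1LG2, at 0.894 FPKM ± 0.0606 (SD, n = 3 per line). NECTIN2 exceeded 87.6% of tested genes in mean FPKM in each line, whereas LGALS9 exceeded 2.75% in NOZ and 30.2% in NOZ-R.

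**Figure D4:**
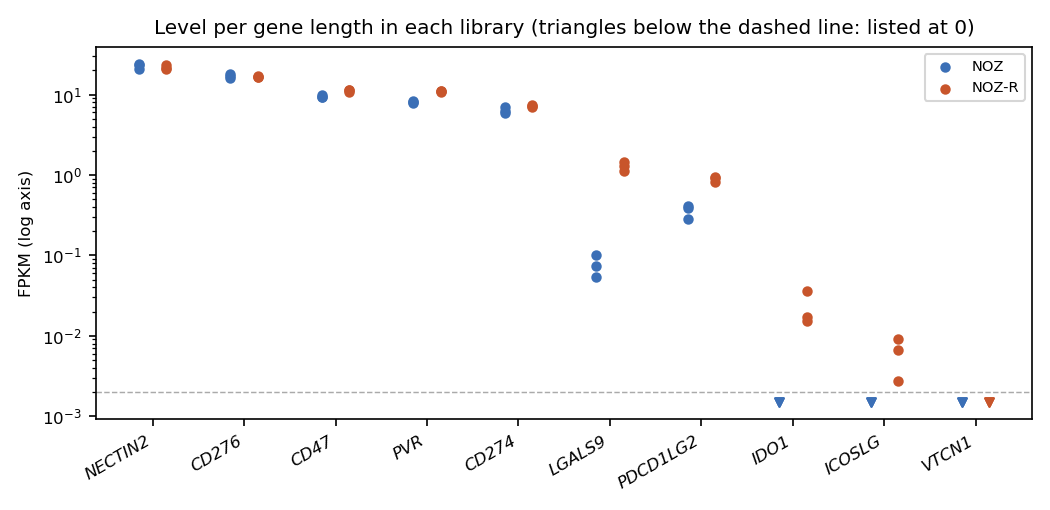
FPKM of each gene in each library on a log axis, NOZ in blue and NOZ-R in orange, ordered by the NOZ-R mean, with triangles for a gene listed at 0 in every library of a line. NECTIN2, CD276, CD47, PVR and CD274 lie within 5.9 to 24.1 FPKM in both lines, while LGALS9 moves from below to above PDCD1LG2.

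Genes of the interferon gamma route, through which CD274 and IDO1 are classically induced, were mostly higher. The lists in this and the next paragraphs were fixed from general knowledge with earlier results of these data known. Of 16 genes, 14 were tested, 12 of them higher and 1 lower, beside 30.4% higher and 29.8% lower among all genes tested. The median log2 fold change was 0.95 against -0.01 over all genes tested. STAT2, a transcription factor of interferon signalling, rose by 2.01 in log2 fold change, the receptor chain IFNGR1 by 1.80 and the transcription factor IRF1 by 1.06 (edgeR adjusted p = 1.89e-11, 2.34e-09 and 1.07e-06). JAK2, given above, was the gene that fell. IFNG, which encodes interferon gamma itself, had 0 counts in all 6 libraries.

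Genes that handle the PD-L1 protein after translation were called about as often as genes at large. All 14 were tested, 4 of them higher, 5 lower and 5 not past the test, with a median of -0.02, where 30.4% of all genes tested were higher and 29.8% lower. CMTM6, a membrane protein that protects PD-L1 from degradation, fell from 295.6 CPM ± 18.2 to 235.3 CPM ± 10.7 (SD, n = 3 per line), log2 fold change -0.33 (SE 0.0599; edgeR, adjusted p = 0.000324). Its relative CMTM4 rose by 0.24 (edgeR adjusted p = 0.0138), which did not pass in 6 of 19 alternatives. The palmitoyltransferase ZDHHC9 fell by 0.65, the kinase GSK3B by 0.38 and the deubiquitinase OTUB1 by 0.36 (edgeR adjusted p = 1.07e-05, 0.000582 and 0.000778). The ubiquitin ligase adaptor SPOP rose by 0.28 and the glycosylation enzyme STT3A by 0.24 (edgeR adjusted p = 0.00139 and 0.00106), the latter call lost when scaling by library size alone. Protein was not measured.

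Of 9 genes around CD47, 7 were tested, with 5 higher, 1 lower and a median of 0.71, beside shares of 30.4% higher and 29.8% lower over all genes tested. The 5 include SIRPG, described below, which passed the filter on low counts through NOZ-R alone and so had to be higher to be tested. The largest rise was in THBS1, a matrix protein that binds CD47, from 10.6 CPM ± 0.451 to 507.8 CPM ± 19.2 (SD, n = 3 per line; log2 fold change 5.59, edgeR adjusted p = 1.70e-15). LRP1, the receptor through which phagocytes read surface calreticulin, rose by 0.73 (edgeR adjusted p = 2.18e-07). QPCTL, the enzyme that modifies CD47 so that SIRP alpha can bind it, was at 6.05 CPM ± 0.597 for NOZ and 4.23 CPM ± 0.953 for NOZ-R (SD, n = 3 per line). Its fall by 0.51 (edgeR adjusted p = 0.0246) was lost in 6 of 19 alternatives, among them leaving out NOZ replicate 1 or 3 or NOZ-R replicate 3, where the highest edgeR adjusted p = 0.108.

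Beyond IDO1, 19 genes of tryptophan and kynurenine handling were examined, 13 of them tested, with 6 higher, 3 lower and a median of 0.12. Together these calls were near the 60.2% called among all genes tested. No enzyme of the first step was tested. IDO2 had 0 counts in all 6 libraries, and TDO2, which catalyses the same step as IDO1, had 0 in NOZ and 10, 17 and 2 in NOZ-R. QPRT, which makes a precursor of NAD from quinolinate, rose from 1.53 CPM ± 0.0818 to 17.4 CPM ± 1.74 (SD, n = 3 per line; log2 fold change 3.50, edgeR adjusted p = 3.03e-10). SLC7A5, an amino acid transporter that carries tryptophan, rose by 1.73 and the tryptophanyl-tRNA synthetase WARS1 by 1.23 (edgeR adjusted p = 5.09e-11 and 1.56e-09). The kynurenine-responsive receptor AHR fell by 0.75, its repressor AHRR by 1.75 and kynureninase KYNU by 0.45 (edgeR adjusted p = 1.80e-06, 8.33e-05 and 6.69e-05).

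Among 30 other ligands that tumour cells can show to immune cells, 20 were tested, 13 of them higher and 5 lower, with a median of 0.55 (all genes tested: 30.4% higher, 29.8% lower). TNFSF9, the ligand of the costimulatory receptor 4-1BB, rose from 29.3 CPM ± 6.70 to 96.7 CPM ± 3.43 (SD, n = 3 per line), log2 fold change 1.73 (SE 0.119; edgeR, adjusted p = 3.27e-08). The butyrophilins BTN3A1 and BTN3A3, of a family through which phosphoantigens are signalled to gamma delta T cells, rose by 1.68 and 1.63 (edgeR adjusted p = 2.12e-08 and 6.87e-07). They resemble each other closely, so counts may be shared between them. TNFSF4, the OX40 ligand, fell from 53.5 CPM ± 4.45 to 10.3 CPM ± 1.10 (SD, n = 3 per line), log2 fold change -2.37 (SE 0.0999; edgeR, adjusted p = 2.50e-10). TNFSF18, the GITR ligand, fell by 2.57 from 2.77 CPM and NECTIN1, another nectin, by 0.64 (edgeR adjusted p = 0.000194 and 6.40e-07). TNFSF18 passed the filter on low counts through NOZ, where it is high, with only 1 NOZ-R library past it. With 1 library left out, its log2 fold change ranged from -3.23 (without NOZ-R replicate 1) to -2.13. CD70, also among the 5 lower, had 15, 14 and 10 counts in NOZ against 8, 4 and 4 in NOZ-R. It passed the filter through NOZ alone, so it had to be lower to be tested. The count of 5 and the median include both genes. Within the B7 family the costimulatory ligands CD80 and CD86 had at most 2 counts in any library.

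**Figure D5:**
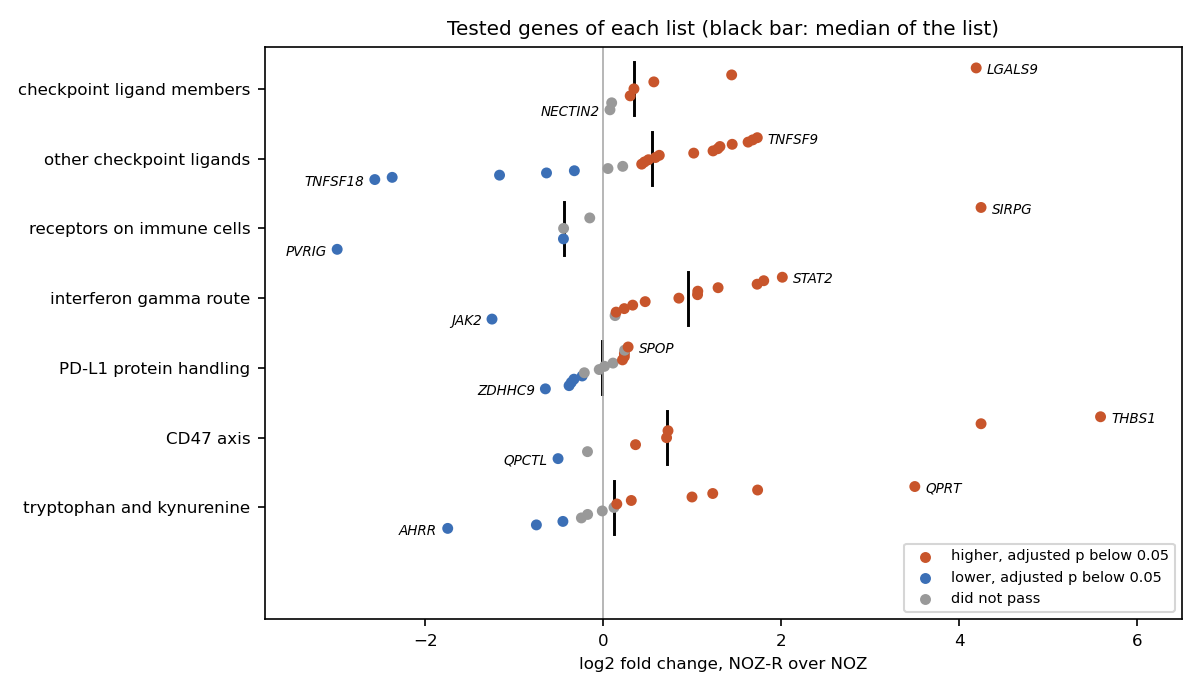
Log2 fold change of NOZ-R over NOZ for the tested genes of the checkpoint ligands and of 6 related lists, each dot a gene, coloured by its call, with a black bar for the list's median and the lowest and highest gene shown of each list named, 1 gene of the interferon gamma route being left out of the dots (SIRPG is on 2 lists). The ligands lie at or above 0.08, the interferon gamma route has a median of 0.95 with JAK2 at -1.25, and the genes that handle PD-L1 lie within -0.65 to 0.28.

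Most epithelial markers were abundant, with CDH1 and MUC1 as exceptions, and markers of other cell types were low. KRT7, KRT8, KRT18 and KRT19 were abundant in both lines, with EPCAM at 73.1 CPM ± 10.8 for NOZ and 49.5 CPM ± 1.63 for NOZ-R (SD, n = 3 per line), a fall by 0.56 (edgeR adjusted p = 0.000149). KRT7 rose by 1.08, KRT18 by 0.64 and MUC1 by 1.34 (edgeR adjusted p = 3.38e-09, 6.45e-05 and 0.000126). CDH1, which encodes the epithelial adhesion protein E-cadherin, had 26, 14 and 15 counts in NOZ and only 5, 2 and 7 counts in NOZ-R, and it fell by 1.83 (edgeR adjusted p = 0.00386), having passed the filter through NOZ. Of 10 leukocyte markers, 1 was tested and did not pass, MS4A1 was at 0 in every library, PTPRC had 28, 14 and 7 counts in NOZ against 4, 2 and 5 in NOZ-R, and the summed level was 3.05 to 5.54 CPM in NOZ and 3.49 to 4.96 CPM in NOZ-R. Of 4 endothelial markers PECAM1 was tested and rose by 2.29 (edgeR adjusted p = 3.01e-08), while no library held more than 2 counts of VWF or KDR. CDH5, not tested, had 13, 8 and 8 counts in NOZ against 7, 11 and 2 in NOZ-R. The summed endothelial level was 2.38 to 2.70 CPM in NOZ and 9.07 to 10.2 CPM in NOZ-R. Of 7 fibroblast markers 3 were tested. COL1A1 and PDGFRB did not pass, at -0.54 and 0.88 (edgeR adjusted p = 0.0548 and 0.147). COL1A2, DCN, LUM and THY1 were at 0 in NOZ and were not tested. In NOZ-R replicates 1 to 3, DCN had 19, 12 and 6 counts and LUM 5, 6 and 14. COL1A2 had 3, 1 and 0 counts there and THY1 1, 0 and 0. COL3A1 rose by 3.10 (edgeR adjusted p = 4.38e-05), and by 2.58 to 3.88 with 1 library left out, the highest without NOZ replicate 3. It passed the filter in 3 NOZ-R libraries and 1 NOZ library. The fibroblast list had a summed level of 3.10 to 3.59 CPM in NOZ and 6.77 to 7.19 CPM in NOZ-R. In bulk RNA, fewer cells of a type and less RNA per cell cannot be told apart, and the part of such cells in the changes of LGALS9 and the other ligands was not tested.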

How the data were processed

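Gene counts were deposited by the authors as raw whole numbers, beside FPKM values for every gene in a separate table. The submitters' processing notes name fastp 0.22.0 and build GRCh38. Aligner, counting tool, strand setting and annotation were not given in the sources used here. Dividing each count by its library total and by 1 fixed length per gene returned the deposited FPKM, which therefore carries no correction for composition.

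Samples were grouped by title. Counts were tested with edgeR 4.0.16 in R 4.3.3 (filterByExpr, TMM, glmQLFit, glmQLFTest, Benjamini-Hochberg over 14386 genes, threshold 0.05; glmTreat for the test against a 2-fold change). CPM uses TMM-scaled library sizes over the genes tested, and the SE is the log2 fold change over the square root of F. The scripts were tested on simulated data. Replicate pairs differed beyond counting noise (mean chi-square over genes 2.19 to 11.2), most for pairs with NOZ replicate 2. Positions came from GENCODE 29 (96.7% of tested genes matched), promoters from RefSeq. Limma 3.58.1, DESeq2 1.42.0 and other settings served as alternatives. Tables and plots were made in Python 3.11.15 (matplotlib 3.10.9, pandas 2.3.3).

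The members and lists were chosen with earlier results of these data known. Named were all members, from each list up to 3 increases and 3 decreases by fitted log2 fold change among called genes whose mean reached 1 CPM, JAK2, IRF1, CMTM6 and QPCTL, and the nearest tested neighbours of tested members. IFNG, IDO2, TDO2, CD70, CD80, CD86, CD160, CD226, PVRIG, SLC1A1, genes near 0 and some marker genes were named outside this rule, after their values were seen. A further gene that the rule names is not reported here, though the counts and the median of its list include it.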

Additional observations from a re-analysis of the deposited data

How the results depend on the processing

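LGALS9, PDCD1LG2, PVR, CD47 and CD274 kept their direction in all 19 alternatives. Leaving out 1 library at a time kept the 5 calls (5 to 5 members higher and 0 to 0 lower) and left 4018 to 4634 genes higher and 3833 to 4328 lower, with CD274 at 0.26 to 0.37 and its highest edgeR adjusted p = 0.0282. The CD274 call was lost under library size alone and under limma on log2(FPKM + 1) and log2(FPKM + 0.1) (0.17, 0.16 and 0.18, adjusted p of 0.0928, 0.0835 and 0.0804), which carry no composition correction. In the same 3 settings the estimates of CD276 (-0.0344, -0.0304 and -0.0319) and NECTIN2 (-0.0533, -0.0509 and -0.0529) reversed without passing. The test against a 2-fold change left 1 member and 847 genes higher and 442 lower. LGALS9 ranged from 1.09 on log2(FPKM + 1) to 4.45 without NOZ replicate 2. The replicate numbers do not pair the samples: same-numbered deviations correlated at 0.0682, -0.0224 and -0.0365, and NOZ replicate 1 with NOZ-R replicate 1 was the only same-numbered pair in which each library correlated best with the other. With the replicate number as a block, 5 members, 4324 genes higher and 4180 lower were called. GC correction, chosen after seeing the data, also called 5 members, with or without the block. For the 35 other named genes, 625 of 665 values kept direction and call, 40 lost the call (19 of them against 2-fold) and none reversed. PDCD1LG2 and LGALS9 are limited by counts of 6 to 18 in the NOZ libraries.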

Other observations

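Of 15 receptors that read these ligands on immune cells, 5 were tested, 1 of them higher, 2 lower and 2 not past the test. Among all genes tested, 30.4% were higher and 29.8% lower. CD226 and CD160 did not pass, at -0.45 and -0.15 (edgeR adjusted p = 0.265 and 0.733). PDCD1, CTLA4, ICOS, TIGIT and TMIGD2 had 0 counts in all 6 libraries. SIRPG, a SIRP family receptor that binds CD47, rose from 2, 3 and 0 counts in NOZ to 30, 34 and 30 in NOZ-R, log2 fold change 4.24 (SE 0.497; edgeR, adjusted p = 6.19e-06). It passed the filter on low counts through NOZ-R alone. With 1 library left out, its log2 fold change ranged from 3.81 to 4.90, the highest without NOZ replicate 2. PVRIG, a receptor of NECTIN2, fell from 14, 15 and 16 counts to 2, 2 and 1, log2 fold change -2.99 (SE 0.532; edgeR, adjusted p = 0.000271). PVRIG passed the filter through NOZ alone, so it had to differ to be tested. CD96, a receptor of PVR, was at 3.97 CPM ± 0.181 for NOZ and 2.92 CPM ± 0.280 for NOZ-R (SD, n = 3 per line), a fall by 0.45 (edgeR adjusted p = 0.0391) that was lost in 11 of 19 alternatives, among them 5 of the 6 that leave out 1 library, where the highest edgeR adjusted p = 0.119. HAVCR2, which encodes TIM-3, had 2, 3 and 1 counts in NOZ against 6, 5 and 3 in NOZ-R, too few to be tested.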
